A study of Mus musculus with 12 samples.

Results

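A set of 10 genes of the Notch pathway was followed through 12 whole-brain libraries of mouse embryos at embryonic day 14.5. They are the receptors Notch1, Notch2 and Notch3, the ligands Dll1, Dll3 and Jag1, and the targets or family members Hes1, Hes5, Hes6 and Hey1. They were chosen by gene symbol, as 10 of the 40690 gene identifiers in the count table, and all 10 passed the filter on low counts that kept 16002 genes. The libraries come from C57BL/6J embryos in 4 groups of 3. LC1 knockout embryos (7, 22 and 71) lack LC1, a conserved noncoding element upstream of Pou3f2, and were set against LC1 wild-type embryos (6, 26 and 73); all 6 are female. RKI homozygous embryos (A1, A10 and A18) carry a knock-in of a human noncoding variant in that element on both alleles, and were set against RKI wild-type embryos (A2, A9 and A16); each RKI group holds 1 female (A10 and A9) and 2 males. The labels' protocol describes embryos matched by sex and litter but names no litter, and it does not say how many founder lines each allele comes from. The deletion and the knock-in lie outside genes, so the gene counts do not check the genotypes.

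Notch signalling passes between touching cells. Ligands of the Delta and Jagged families on one cell bind Notch receptors on its neighbour, the receptor is cleaved, and its intracellular part joins the DNA-binding protein RBPJ to switch on genes such as Hes1, Hes5 and Hey1. In the embryonic brain these target genes encode repressors that hold radial glia, the neural progenitors, in an undifferentiated state, while newly committed neurons display Delta ligands to the progenitors around them.

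No gene of the set differed between mutant and wild-type brains in either experiment after adjustment over all genes. The 10 genes did vary from embryo to embryo. Of their 45 pairs, 44 had a positive Pearson r, some of them near 0, with a median of 0.45. Among genes at 10 CPM or more, 49.9% of all pairs were negative. After adjustment 9 of the 45 pairs passed, and 1 did once group means were removed. Notch3 levels went with those of Dll1, Hes1 and Hey1. Higher Notch3 went with more RNA of radial glia and dividing cells and with less RNA of postmitotic neurons.

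The promoters of a target and of the receptor with the most covarying partners are shown because the RBPJ complex and the Hes repressors bind short DNA motifs. Both are RefSeq windows of 250 bases before to 50 bases after the start on GRCm38.p6, at chr4:154960673-154960972 on the plus strand for Hes5 and chr17:32166841-32167140 on the minus strand for Notch3, written 5′ to 3′ on the gene's strand. Capitals mark the RBPJ core TGGGAA (or TTCCCA on the other strand) in Hes5 and the N-box CACNAG (or CTNGTG), a motif bound by Hes proteins, in Notch3.
Hes5: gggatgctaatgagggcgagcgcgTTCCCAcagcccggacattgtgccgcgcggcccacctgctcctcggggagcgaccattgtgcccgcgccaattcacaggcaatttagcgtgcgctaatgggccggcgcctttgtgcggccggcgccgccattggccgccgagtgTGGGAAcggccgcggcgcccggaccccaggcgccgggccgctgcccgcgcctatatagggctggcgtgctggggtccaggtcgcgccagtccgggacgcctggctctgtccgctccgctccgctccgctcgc
Notch3: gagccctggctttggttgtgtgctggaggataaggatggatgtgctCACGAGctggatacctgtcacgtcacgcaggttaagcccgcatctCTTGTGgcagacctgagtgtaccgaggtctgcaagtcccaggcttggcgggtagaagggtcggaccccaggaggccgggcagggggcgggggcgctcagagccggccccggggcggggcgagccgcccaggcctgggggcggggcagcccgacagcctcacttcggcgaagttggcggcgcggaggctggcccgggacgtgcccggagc
The Hes5 window held 2 matches to the RBPJ core, with first bases at -226 and -82 from the start, and no N-box. The Notch3 window held 2 N-box matches, at -204 and -159, and no RBPJ core. Promoter entries were available for 8 of the 10 genes. They were lacking for the targets Hes1 and Hey1, whose promoters were therefore not searched. Among the 8, the RBPJ core was found for Hes5 only. N-box letters were found for Notch1, Notch2, Notch3, Dll1 and Hes6. Both strands were searched, and the motifs were found in 25.6% (RBPJ core) and 42.5% (N-box) of 32851 promoters of this length. A match describes the letters and is not a measured binding site.

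The levels were compared between genes per length, as the deposited RPKM (reads per kilobase of gene and per unit of sequencing depth). Hes6, a family member that opposes Hes1 and is expressed in committed neuronal precursors, was highest at a mean of 43.8 RPKM over the 12 libraries (range 41.5 to 48.1). The receptors Notch2 and Notch1 followed at 21.9 and 20.2 RPKM, and Hey1 and Notch3 at 14.7 and 14.5 RPKM. Dll1 averaged 12.1 RPKM, Hes5 11.02 RPKM and Hes1 10.03 RPKM. The ligands Dll3 and Jag1 were lowest at 5.85 and 5.77 RPKM. The ranges of neighbours in this order did not overlap between Hes6 and Notch2, between Notch1 and Hey1, and between Hes1 and Dll3, while all other neighbours overlapped. In counts, the genes had between 259 reads (Hes5 in LC1 knockout 7) and 7583 reads (Notch1 in RKI wild type A2), in libraries of 18192984 to 26566769 counted reads.

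Within a gene, the samples were compared as CPM, in which each count is divided by a library total corrected with edgeR's TMM factors. The coefficient of variation over the 12 libraries was largest for Hes1 at 14.3%, followed by Hey1 at 12.1%, Dll3 at 10.4% and Hes5 at 10.3%. It was smallest for Hes6 at 4.33%. Genes within 1.5-fold of the same level had median coefficients of 7.61% for Hes1, 6.73% for Hey1 and 5.42% for Hes6. Counting error alone gives 4.73% for Hes1, 3.76% for Hey1 and 2.40% for Hes6.

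**Figure D1:**
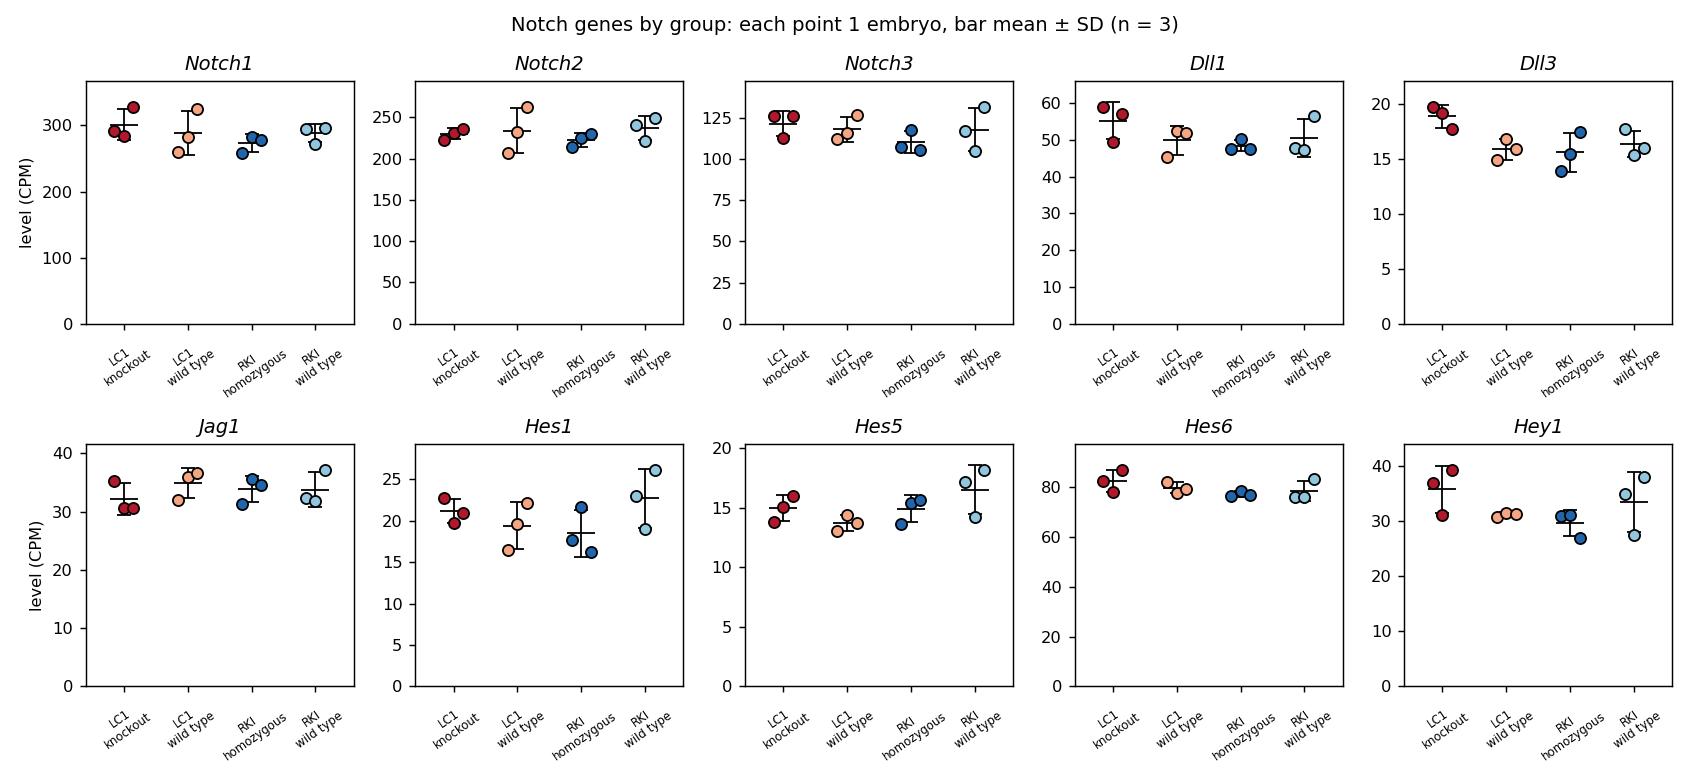
Level of each gene (y axis, CPM, from 0) in the 4 groups, with 1 point per embryo and a bar for the mean ± SD of 3 embryos. Dll3 in LC1 knockout brains (17.7 to 19.8 CPM) is the only gene whose mutant points all lie above those of its wild type (14.9 to 16.8 CPM).

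The receptors were first compared between LC1 knockout and wild-type brains. Notch1, the main receptor of neural progenitors, had 292.2, 283.9 and 327.8 CPM in LC1 knockout embryos 7, 22 and 71, against 259.4, 282.6 and 324.5 CPM in wild-type embryos 6, 26 and 73. The groups overlapped, and the log2 fold change was 0.06 with a 95% interval of -0.11 to 0.23. Notch2 had 223.0, 230.8 and 235.9 CPM in LC1 knockouts, against 207.3, 232.2 and 262.3 CPM in wild types. All 3 knockout values lay within the wild-type range, with a log2 fold change of -0.03. Notch3, a receptor of progenitors and of vascular mural cells, had 126.1, 112.5 and 125.9 CPM in LC1 knockouts, against 112.2, 115.6 and 126.6 CPM in wild types. Again the groups overlapped, with a log2 fold change of 0.04. In the RKI experiment the 3 receptors had log2 fold changes of -0.08 (Notch1), -0.09 (Notch2) and -0.10 (Notch3) in homozygous over wild-type brains, with overlapping groups for each. Notch3 had 107.3, 117.8 and 105.6 CPM in RKI homozygous embryos A1, A10 and A18, against 117.2, 104.9 and 131.5 CPM in wild-type embryos A2, A9 and A16. The wild-type embryos held both the lowest and the highest of these 6 values. The Notch3 value was -0.22 without A9 (unadjusted p 0.0126 in edgeR's test), where the sex term leaves only males in the contrast. It was -0.01 without A16.

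Among the ligands, Dll3 stood apart in LC1. Dll3, a divergent Delta protein that acts inside the cell that makes it, had 19.8, 19.2 and 17.7 CPM in LC1 knockout embryos, against 14.9, 16.8 and 15.9 CPM in wild-type embryos. All 3 knockouts exceeded all 3 wild types, the log2 fold change was 0.25 ± 0.10 (SE), and the unadjusted p was 0.0192 in edgeR's quasi-likelihood test. After Benjamini-Hochberg adjustment over 16002 genes the p was 1.0, so the difference did not pass. Groups did not overlap upward in 3.36% of all genes and downward in 3.81%, and no other gene of the set separated the groups in LC1. The unadjusted p was 0.0714 without wild-type embryo 6, 0.0628 without knockout 7 and 0.0504 without knockout 22. In RKI, Dll3 had 13.95, 15.5 and 17.4 CPM in homozygous brains, against 17.7, 15.4 and 16.04 CPM in wild types. These groups overlapped, with a log2 fold change of -0.07.

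Dll1, the Delta ligand shown by newborn neuronal cells, had 58.9, 49.4 and 57.1 CPM in LC1 knockouts, against 45.3, 52.5 and 51.8 CPM in wild types. The groups overlapped, with a log2 fold change of 0.14 and an interval of -0.04 to 0.32. In RKI its log2 fold change was -0.06, and wild-type embryo A16 alone exceeded the homozygous range clearly at 56.4 CPM. Jag1, a ligand of the Jagged family, was the only ligand with a lower mean in LC1 knockouts, at 32.2 ± 2.7 CPM against 34.9 ± 2.6 CPM in wild types (SD, n = 3 each). Its log2 fold change in LC1 stood at -0.12, with an interval of -0.30 to 0.07. In RKI its log2 fold change was 0.00.

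Among the targets, Hes1 had the largest difference in RKI. Hes1, a repressor that keeps progenitors from differentiating, had 17.6, 21.6 and 16.2 CPM in RKI homozygous embryos A1, A10 and A18, against 23.0, 19.1 and 26.2 CPM in wild-type embryos A2, A9 and A16. The groups overlapped, since homozygous A10 lay above wild-type A9, and these are the 2 females. The log2 fold change was -0.30 ± 0.13 (SE), with an unadjusted p of 0.0383 and an adjusted p of 1.0 in edgeR's quasi-likelihood test. It was -0.18 without wild-type A16 and -0.19 without homozygous A18, each with an unadjusted p above 0.05. It was -0.54 without either female, where the sex term leaves only males in the contrast, with an unadjusted p of 0.000414 without A9 and an adjusted p of 0.525. In the male wild type A16 the summed markers of dividing cells were also highest, at 2391 CPM, against 1569 and 1761 CPM in the other 2 RKI wild types. Their part in the result was not tested. In LC1, Hes1 had 22.7, 19.8 and 20.99 CPM in knockouts, against 16.5, 19.6 and 22.2 CPM in wild types. The groups overlapped, with a log2 fold change of 0.12.

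Hey1, a related repressor, had 36.8, 31.1 and 39.3 CPM in LC1 knockouts, against 30.7, 31.5 and 31.3 CPM in wild types. Knockouts 7 and 71 were high and knockout 22 lay within the wild types, giving a log2 fold change of 0.19 with an interval of -0.03 to 0.41. In RKI it had 30.8, 31.1 and 26.8 CPM in homozygous brains, against 34.8, 27.4 and 37.98 CPM in wild types, with a log2 fold change of -0.17. That value was -0.34 without either female (unadjusted p 0.0050 without A9), -0.09 without A16 and -0.06 without A18. Hes5, the other main effector of Notch in progenitors, had 13.8, 15.04 and 16.01 CPM in LC1 knockouts, against 13.1, 14.4 and 13.8 CPM in wild types, with a log2 fold change of 0.12. In RKI it had 13.6, 15.4 and 15.7 CPM in homozygous brains, against 17.2, 14.2 and 18.2 CPM in wild types, with a log2 fold change of -0.15. That value was -0.27 without either female, -0.09 without A16 and -0.06 without A1. Both pairs of groups overlapped. Hes6 had log2 fold changes of 0.05 in LC1 and -0.02 in RKI, the tightest of the targets.

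Counted together, 8 of the 10 genes had a positive and 2 a negative log2 fold change in LC1, with a median of 0.09 against 0.00 over all genes tested. In RKI, 1 was positive and 9 were negative, with a median of -0.08 against 0.00 over all genes. The genes covary across embryos, so these counts are not 10 separate observations. At an adjusted p of 0.05, 0 of 10 were called in either experiment, and 0.0% of all genes were called in LC1 and 0.0% in RKI. At an unadjusted p under 0.05, 1 gene (Dll3) passed in LC1, where 2.09% of all genes did, and 1 gene (Hes1) in RKI, where 1.92% did. DESeq2 called 0 genes in LC1 and 0 in RKI, with 183 and 177 genes at an unadjusted p under 0.05. In RKI no gene of the set separated the groups, against 2.59% of all genes upward and 3.07% downward. The 95% intervals of the 10 genes ran from 0.81-fold (Jag1) to 1.37-fold (Dll3) in LC1 and from 0.67-fold (Hes1) to 1.14-fold (Jag1) in RKI. Since these are whole brains, fewer cells of a type and less RNA per cell cannot be told apart. Each p-value measures the spread between single embryos, pooled over the 4 groups.

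**Figure D2:**
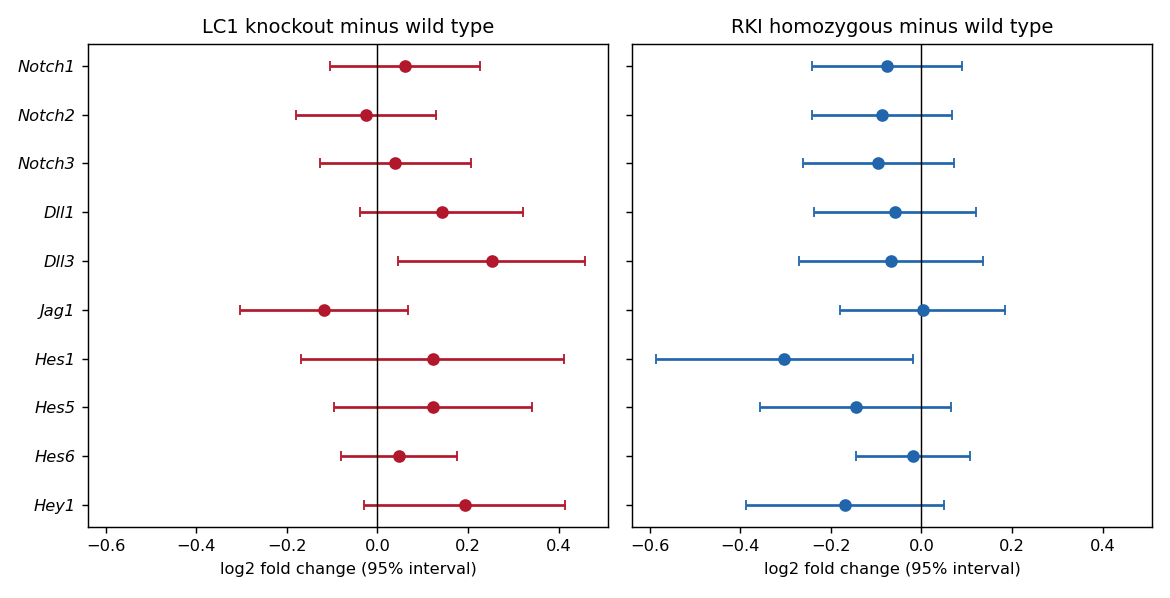
Log2 fold change of each gene (x axis, with 95% intervals) in LC1 knockout over wild type (left) and RKI homozygous over wild type (right). The intervals of Dll3 in LC1 and of Hes1 in RKI leave out 0 before adjustment, and none passed after adjustment over all genes.

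In the authors' deposited tables, Dll3 had a log2 fold change of 0.26 with p = 0.0111 and Hey1 one of 0.20 with p = 0.0195 in LC1, and both had an adjusted p of 0.937. For RKI the authors' deposited table gave Hes1 a log2 fold change of -0.31 with p = 0.0286 and an adjusted p of 0.997, after its sign was turned to homozygous minus wild type.

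The difference between the 2 effects, LC1 minus RKI, was tested within the same fit. It was largest for Hes1 at 0.42 (log2, unadjusted p 0.0416), Hey1 at 0.36 (0.0255) and Dll3 at 0.32 (0.0326), and every adjusted p of the 10 genes in edgeR's test was 1.0. With 1 library left out, Hes1 ran from 0.31 without A16 (unadjusted p 0.104) to 0.66 without A9 (0.00074). Hey1 ran from 0.25 without A18 to 0.53 without A9, and Dll3 from 0.23 without A1 to 0.41 without A18. Without A9, only males are left in the RKI part of this difference. At an adjusted p of 0.05, 0.0% of all genes were called for this difference, and 2.42% had an unadjusted p under 0.05, against these 3 genes of 10. Hes1 and Hey1 covary across the embryos (r = 0.73), so these 2 are not separate observations. Dll3 had r = 0.30 with Hes1 and 0.37 with Hey1, and all 3 genes were read from the same libraries. In RKI wild types over LC1 wild types, Hes1 (0.22) and Hes5 (0.18) had the largest log2 differences, and the others lay between -0.05 and -0.01. With 1 library left out, Hes1 ran from 0.12 without LC1 wild type 6 to 0.69 without A9 (unadjusted p 0.00195 in edgeR's test). Hes5 ran from 0.15 without 6 to 0.44 without A9 (0.0224). Without A9 the RKI wild types are all male and the LC1 wild types all female. These values then rest on a sex term taken from A10 against A1 and A18. With all libraries none of the 10 passed, and none had an unadjusted p under 0.05, against 3.89% of all genes. Over all genes 0.0125% were called in this comparison, which were Gabra2 and Gm28438. The litters, time and handling of the experiments cannot be told apart from the line.

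The rest of the pathway was read from a list of 56 genes for receptor cleavage, glycosylation, ligand endocytosis, the nuclear complex, receptor turnover and further ligands, receptors and targets. Of these, 53 passed the filter, and Dlk1, Hes2 and Hes3 did not. None was called in any of the 4 comparisons. In LC1, 36 had a positive and 17 a negative log2 fold change, with a median of 0.03, and in RKI 27 were positive and 26 negative, with a median of 0.00. The smallest p in LC1 belonged to Hes7, the segmentation-clock repressor, at 0.49 ± 0.17 CPM in knockouts and 0.24 ± 0.05 CPM in wild types (SD, n = 3 each). Ncstn, a subunit of the γ-secretase that cleaves Notch, had a log2 fold change of 0.11. In RKI the smallest p-values belonged to Heyl, Dner and Mib2, with log2 fold changes of 0.19, 0.13 and 0.12. Mib2 is a ubiquitin ligase for Notch ligands. For the difference between the effects, Hes7 had a log2 value of 1.18 and the ligand Dll4 one of 0.30. Between the wild types the smallest p-values belonged to the coactivator Snw1, Dll4 and Hes7, with log2 differences of -0.17, 0.24 and 0.95.

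Transcript estimates were available for 36 transcripts of the 10 genes, of which 25 passed the filter. None was called in LC1 or RKI, and 0.0% of 47772 transcripts were called in LC1 and 0.0% in RKI. None of the 25 had an unadjusted p under 0.05, against 1418 of all transcripts in LC1 and 1172 in RKI. A protein-coding transcript led for every gene. It held 99.1% of the estimate for Notch1, 87.1% for Dll3, 81.0% for Jag1, 80.0% for Dll1, 78.1% for Hes6 and 71.0% for Hes1. Most of the remainder for Dll3, Jag1, Hes1 and Hes6 was annotated as retained introns. The Dll3 coding transcript held 84.5 ± 1.9% in LC1 knockouts and 93.02 ± 2.2% in LC1 wild types (SD, n = 3 each), while the retained-intron transcript Dll3-003 held 12.9 ± 0.8% in LC1 knockouts and 5.8 ± 4.1% in LC1 wild types. In RKI, Dll3-003 held 14.3 ± 5.8% in homozygous brains and 11.2 ± 4.2% in wild types. The coding transcript held 84.0 ± 6.2% and 86.9 ± 4.4% there. The mean LC1 knockout shares were thus near those of both RKI groups, and the LC1 wild-type means lay farthest from the rest. The mean ± SD ranges of LC1 and RKI wild types overlapped for both transcripts. Dll3-003 had a mean estimate of only 34.4 reads. In LC1 it did not pass the test, with a log2 fold change of 1.39 and an unadjusted p of 0.0594 in edgeR's test. The Dll3 coding transcript had a log2 fold change of 0.16 there, with an unadjusted p of 0.278 in the same test.

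The 10 genes varied together to differing degrees across the embryos. Over the 12 libraries, 44 of the 45 gene pairs had a positive Pearson r of log2 CPM, with a median of 0.45. The exception was Dll3 with Jag1, at -0.01, and Jag1 was also near 0 with Hes6 (0.05) and Hey1 (0.07). Of the 45 pairs, 20.0% had an r of 0.7 or more, against 2.48% of all pairs among genes at 10 CPM or more, whose median r was 0.00. Within experiments the median was 0.43 in the 6 LC1 libraries and 0.71 in the 6 RKI libraries, with 11.1% of the pairs negative in LC1 and 0.0% in RKI. The negative pairs in LC1 included Jag1 with Hes5 (-0.51) and Jag1 with Hes6 (-0.44). These libraries share their groups, sexes and cell mixtures, so the pairs are not independent.

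Notch3 had the most partners. With permutation tests over the 12 libraries and adjustment over the 45 pairs, 9 pairs passed, and Notch3 was in 5 of them. Notch3 with Hey1 had r = 0.85 and Spearman's rho = 0.83 (permutation p = 0.00068 and 0.00128, adjusted 0.013 and 0.0096). It was 0.69 in LC1, 0.92 in RKI and 0.76 without the 2 libraries farthest from the median of Notch3. Notch3 with Hes1 had r = 0.84 and rho = 0.86 (permutation p = 0.0008 and 0.00063, adjusted 0.013 and 0.0096). It was 0.84 in LC1, 0.93 in RKI and 0.83 without the 2 farthest libraries, and its adjusted p was 0.0524 without A16. Notch3 with Dll1 had r = 0.83 and rho = 0.83 (permutation p = 0.0011 and 0.00127, adjusted 0.013 and 0.0096), with 0.81 in LC1, 0.91 in RKI and 0.79 without the 2 farthest. The receptor had a positive r with this ligand and with both targets in each experiment. In LC1 alone the exact permutation p was 0.171 with Hey1, 0.0667 with Dll1 and 0.00972 with Hes1. In RKI it was 0.00556, 0.00139 and 0.0125 in that order. Of the 9 pairs, 3 had an unadjusted p under 0.05 in both experiments.

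Notch1 with Notch2 was the strongest pair without Notch3, at r = 0.83 and rho = 0.85 (permutation p = 0.00116 and 0.00102, adjusted 0.013 and 0.0096), with 0.83 in LC1, 0.95 in RKI and 0.87 without the 2 farthest. The other 5 pairs that passed were Dll1 with Hey1 (r = 0.78), Notch1 with Notch3 (0.76), Hes6 with Hey1 (0.74), Hes1 with Hey1 (0.73) and Notch3 with Hes6 (0.71). Their rho was 0.62 to 0.87 and their adjusted p for r 0.0297 to 0.0457, with r of 0.50 to 0.84 in LC1 and 0.66 to 0.89 in RKI. Without the 2 farthest libraries, 5 of the 9 pairs had a permutation p under 0.05, and Dll1 with Hey1 (r = 0.63), Hes6 with Hey1 (0.45), Hes1 with Hey1 (0.53) and Notch3 with Hes6 (0.62) did not, with permutation p of 0.0544, 0.187, 0.115 and 0.0531 in that order. Of the 9, the pairs Notch3 with Hey1, Notch3 with Dll1 and Notch1 with Notch2 passed whichever library was left out. The number of pairs that passed was 5 without LC1 knockout 71, 5 without RKI homozygous A1, 4 without RKI wild type A9 and 4 without RKI wild type A16. After each group's mean was removed, Notch3 with Hes1 alone passed, at r = 0.91 with an exact permutation p of 0.000772, the smallest that the 1296 permutations within groups can give. No pair passed in the 6 LC1 libraries, where no pair could pass alone, since the smallest p of 720 exact permutations is 0.00139. In the 6 RKI libraries, with 720 exact permutations, Notch3 with Dll1 and Notch2 with Hes5 passed; the second pair had r = 0.99 in RKI and 0.30 in LC1. Over the 12 libraries Dll3, Jag1 and Hes5 were in none of the 9 pairs, and their median r with the other genes was 0.30, 0.25 and 0.37.

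**Figure D3:**
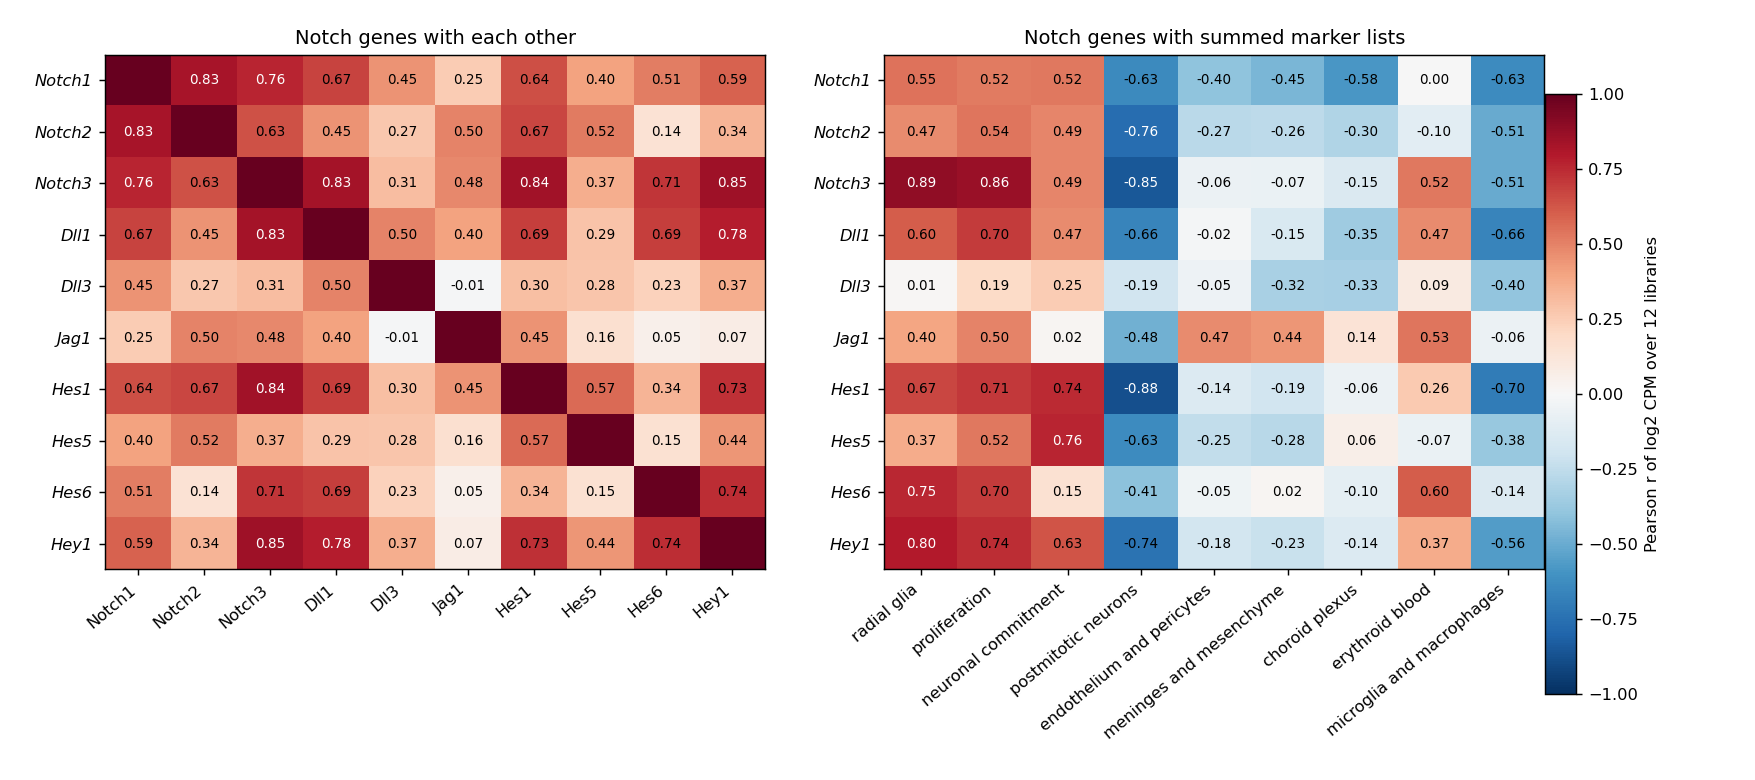
Pearson r of log2 CPM over the 12 libraries between the 10 genes (left) and between each gene and the summed CPM of 9 marker lists (right), on a color scale from -1 to 1. The Notch3 row is darkest, with 0.85 for Hey1 and 0.89 for the radial glia list, and all 10 genes are negative with postmitotic neurons.

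The same brains differed in their cell-type markers. Markers of 9 cell classes were summed in each library, and none of the lists holds any of the 10 genes. All 10 genes had a positive r with the lists for radial glia, proliferation and neuronal commitment, with medians of 0.57, 0.62 and 0.49. Some values were near 0, with lowest r of 0.01 (Dll3), 0.19 (Dll3) and 0.02 (Jag1), and 3, 4 and 2 genes passed. All 10 were negative with postmitotic neurons, at a median of -0.65, and with microglia and macrophages, at -0.51. The weakest were -0.19 (Dll3) and -0.06 (Jag1), and 4 and 1 genes passed. Of 90 gene and list pairs, 14 passed adjustment over the 90. No share over all genes is given beside these counts, so they do not set the 10 genes apart from other genes. Notch3 had r = 0.89 with radial glia (rho = 0.83, permutation p = 0.00013, adjusted 0.0048), with 0.60 in LC1 and 0.99 in RKI. With proliferation it had r = 0.86 (rho = 0.90, permutation p = 4e-05, adjusted 0.0036), with 0.91 in both experiments. With postmitotic neurons it had r = -0.85 (rho = -0.87, permutation p = 0.00016, adjusted 0.0048), with -0.70 in LC1 and -0.97 in RKI. Hes1 had r = -0.88 with postmitotic neurons (rho = -0.83, permutation p = 0.00023, adjusted 0.00517), with -0.86 in LC1 and -0.90 in RKI. Without the 2 farthest libraries these 4 values were 0.81, 0.90, -0.77 and -0.79.

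Those 4 pairs passed whichever library was left out, and the other 10 did not. Hey1 had r = 0.80 with radial glia (permutation p = 0.00195, adjusted 0.0351). Hes5 had r = 0.76 with neuronal commitment (permutation p = 0.00398, adjusted 0.0448) and 0.37 with radial glia, and the difference between these values was not tested. Dll3 and Jag1 passed with no list. Jag1 was the gene with the highest r for endothelium and pericytes, at 0.47 (permutation p = 0.123). Its own highest r was with erythroid blood, at 0.53. Notch3, also known from mural cells, had -0.06 with the endothelium and pericyte list, which sums markers of both cell types. The count of 14 was 8 without LC1 knockout 7, 4 without knockout 22, 4 without LC1 wild type 26, 9 without RKI homozygous A1, 4 without A10 and 5 without A18. It was 7 without RKI wild type A2, 4 without A9 and 8 without A16. After group means were removed, or within either experiment alone, 0 pairs passed.

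**Figure D4:**
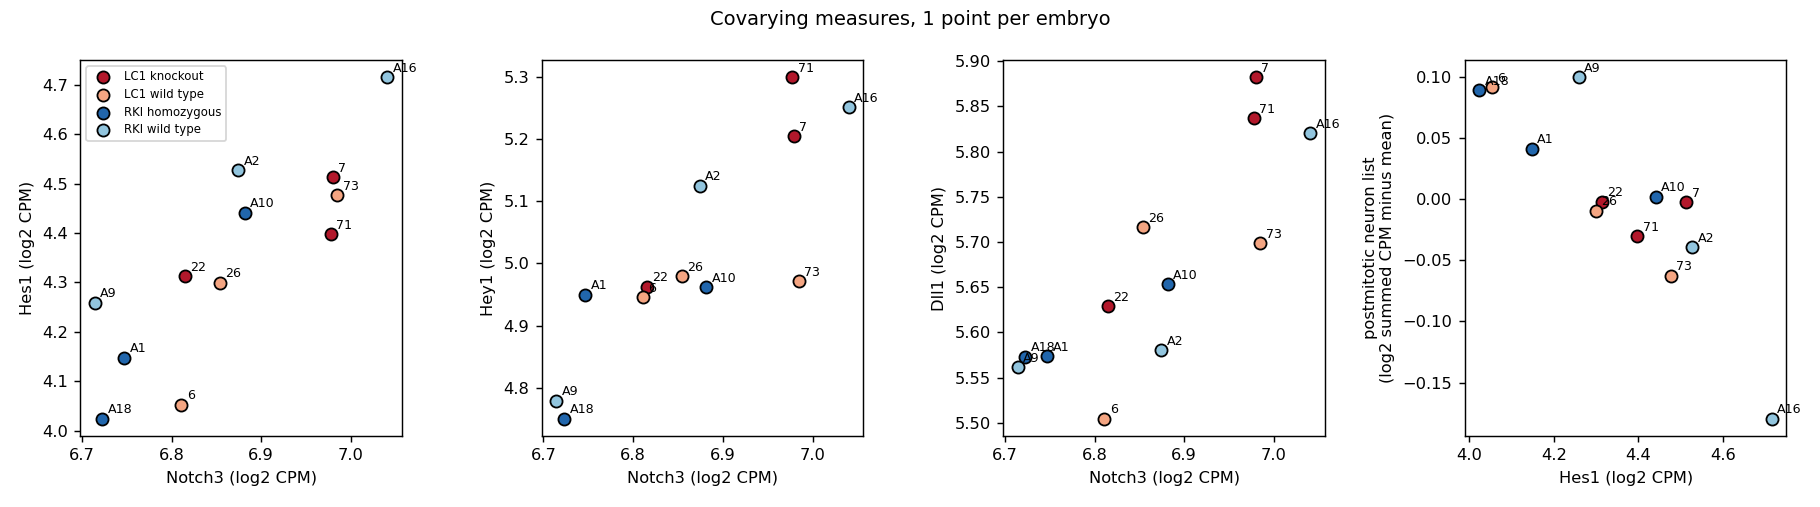
Hes1, Hey1 and Dll1 (y axes, log2 CPM) against Notch3 (x axis, log2 CPM), and the summed postmitotic neuron markers (y axis, log2 minus the mean) against Hes1, with 1 labelled point per embryo. RKI wild type A16 lies at the upper end of Notch3 and Hes1 and is lowest for the neuron markers; r is 0.84, 0.85 and 0.83 in the first 3 panels and -0.88 in the last.

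Individual brains carried the shared pattern. RKI wild type A16 had the highest value among the 6 RKI libraries for 9 of the 10 genes, and the highest of all 12 for 4 of them. It also had the highest radial glia sum of the 12 (3466 CPM) and proliferation sum (2391 CPM) and the lowest postmitotic neuron sum (9301 CPM). LC1 wild type 6 had the lowest value among the LC1 libraries for 8 of the 10 genes. Its postmitotic neuron sum was high at 11229 CPM, but its radial glia sum of 3180 CPM was above the 12-library mean and its proliferation sum of 1789 CPM was near it. It also had the highest sums of the 12 for microglia and macrophages (195 CPM), meninges and mesenchyme (1497 CPM) and choroid plexus (919 CPM). RKI wild type A9 and RKI homozygous A1 were above the 12-library median for 0 of the 10 genes. Both the highest and one of the lowest brains of RKI were therefore wild types. The 14 radial glia markers that were measured and all 12 neuron markers had reads in every library of this labelled brain tissue, while the radial glia marker Pdpn was listed at 0 throughout. The part of the cell mixture in the group differences was not tested.

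**Figure D5:**
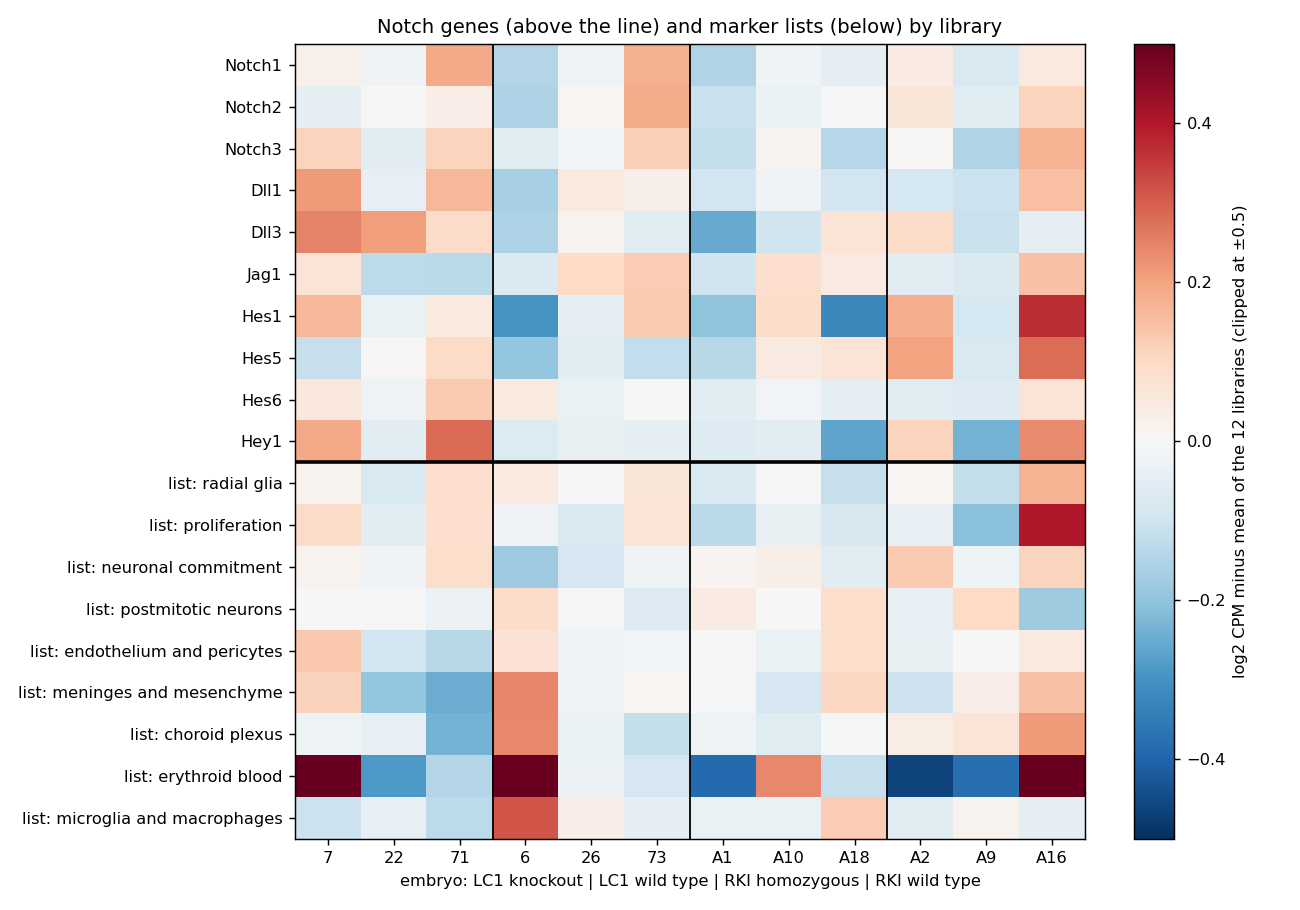
Log2 CPM minus the mean of the 12 libraries (color, clipped at ±0.5) for the 10 genes (above the line) and the 9 marker lists (below it), with libraries as columns by group. A16 is high for 9 of the 10 genes within RKI and lowest for postmitotic neurons, and embryo 6 is low for 8 of the 10 genes within LC1.

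Genes outside the set whose levels most resembled each gene were read over the 12 libraries among 10309 genes at 10 CPM or more, as a description. Notch3 was most like Tead2 (r = 0.96), a transcription factor partner of YAP, and Cdc25b (0.95), a phosphatase that starts mitosis. Cdc25b was also the gene most like Hey1 (0.90). Hes1 was most like Cand2 (0.94), Lhx2 (0.90), a homeodomain factor of cortical progenitors that is also in the radial glia list, and Ezh2 (0.90), a histone methyltransferase. Hes5 was most like Kctd6 (0.88) and Gli2 (0.85), a factor of Hedgehog signalling. Jag1 was most like Col15a1 (0.88), a basement-membrane collagen. Hes6 was most like Lta4h (0.98), Notch1 like Mbtps1 (0.94), Dll1 like Ash2l (0.93), Dll3 like Champ1 (0.92) and Notch2 like Pdpr (0.91).

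Some genes share their place with others. On GRCm38 (GENCODE M21), Dll1 (chr17:15367354-15376872, minus strand) overlaps the opposite-strand A930024N18Rik, which had a mean of 97.1 reads against 1109 for Dll1. Notch1, Notch3 and Hes5 overlap opposite-strand genes with means of at most 15.8 reads. Notch2 overlaps Gm42819 and Gm42820 on its own strand, for which no counts were used here. No source used here says whether the counting used strand, so reads of such partners could not be told apart. Dll3 (chr7:28293553-28302238, minus strand) and Hes1 (chr16:30064384-30067796, plus strand) overlap no annotated gene, and neither do Jag1, Hes6 and Hey1.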

How the data were processed

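RNA of 12 embryonic whole brains was sequenced from oligo-dT libraries, per the labels. The authors deposited raw counts per gene, RPKM values, transcript-level estimated counts, and log2 fold changes with p-values from their comparisons. Per the submitters' processing notes, the tools were edgeR, limma, featureCounts 1.4.5, Subread and STAR 2.0.4b, with no roles given. Build, annotation release and strand setting: not given in the sources used here. Repeated rows (574 of 41264) carried the same counts, and 1 was kept. The deposited RPKM followed the counts to within 0.0072% over 11906 genes.

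Gene counts were tested with edgeR 4.0.16 (quasi-likelihood F test, TMM, filterByExpr, robust) in 1 fit of all 12 libraries with 4 group means and sex (7 residual degrees of freedom), with Benjamini-Hochberg adjustment over 16002 genes at 0.05. Transcript estimates were rounded and tested alike. The script was tested on simulated data. DESeq2 1.42.0, RLE scaling, no filter, no sex term, each experiment alone and each library left out were the alternatives. Pearson's r and Spearman's rho used log2 CPM (prior count 2), 100000 permutations over 12 libraries, and exact permutations within experiments or groups, two-sided. Libraries held 18192984 to 26566769 counted reads, which limits precision by counting error alone for low genes.

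The 10 genes and all lists were chosen with earlier results of these data known. Named pathway genes are taken from the 3 with the smallest p per comparison, of which 1 gene is not reported here, named pairs those past adjustment, and genes most alike the 3 with the highest r. Promoters were taken from RefSeq (GRCm38.p6) and gene positions from GENCODE M21 by identifier.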

Additional observations from a re-analysis of the deposited data

How the results depend on the processing

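No paired analysis was possible because no label ties embryos to litters and the embryo numbers are not shared between groups. The counts of the 10 genes, the other pathway genes and their transcripts called stayed at 0 under every alternative run. The pairs of genes that covaried numbered 9, and 1 after group means were removed, 0 in LC1 alone, 2 in RKI alone and 4 to 13 with 1 library left out. The gene and marker list pairs numbered 14, and 0 after group means were removed, 0 in LC1 alone, 0 in RKI alone, 3 without the 2 farthest libraries and 4 to 13 with 1 library left out. Fewer libraries also leave fewer permutations, so that no pair could pass alone within an experiment. After group means were removed, no gene and list pair could pass alone either. The cause was not tested otherwise.

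Small log2 fold changes changed sign. With 1 library left out, LC1 values ran from -0.0129 to 0.1529 for Notch1 and -0.1067 to 0.0658 for Notch2. RKI values ran from -0.1304 to 0.0353 for Dll1, -0.1532 to 0.026 for Dll3, -0.0724 to 0.0848 for Jag1 and -0.0532 to 0.0282 for Hes6, and Jag1 was -0.0008 with only the RKI libraries. The difference between effects for Notch2 ran from -0.0171 to 0.1516. RKI wild type against LC1 wild type ran from -0.0847 to 0.1095 for Notch1, -0.0992 to 0.0881 for Notch2, -0.0795 to 0.2204 for Notch3, -0.0653 to 0.1413 for Dll1, -0.0465 to 0.0663 for Dll3, -0.1056 to 0.1004 for Jag1, -0.0583 to 0.0327 for Hes6 and -0.0494 to 0.3325 for Hey1. Without the sex term that comparison gave 0.017 for Notch2, 0.0155 for Dll1, 0.0454 for Dll3 and 0.0988 for Hey1. With 1 library left out, each of its upper values came without A9, where only males are left among the RKI wild types. Without changing sign, LC1 values ran from 0.0752 to 0.2171 for Dll1, 0.014 to 0.2291 for Hes1 and 0.1213 to 0.287 for Hey1. Of the 10 genes in the 4 comparisons, the smallest adjusted p under any alternative was 0.525, for Hes1 and Hey1 in RKI. It came without A9, where only males are left in that contrast, and the cause was not tested otherwise. Depth limits the low genes most, since counting error alone gives Hes5 a coefficient of variation of 5.499%.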

Other observations

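The deposited gene counts and transcript estimates differed in size for some of the genes. The gene count divided by the summed transcript estimates was 1.87 for Notch1, 2.02 for Notch2, 1.87 for Notch3 and 1.74 for Jag1, and 0.571 for Hes5. Over 11677 genes with a mean count of 100 or more the median was 1.02, with quartiles of 0.802 and 1.30. The order of levels between these genes thus depends on which table is read, and the cause was not tested.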
